A study of Homo sapiens with 6 samples.

Results

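The Notch pathway and HES genes described here are 10 genes, NOTCH1, NOTCH2, NOTCH3, JAG1, JAG2, RBPJ, HES1, HES4, HEY1 and HEY2, taken by symbol from the 27420 genes of the deposited expression table. RNA was sequenced from A673 and SKNMC, established cell lines of Ewing sarcoma, a bone and soft tissue tumour of the young driven by an EWS-FLI1 fusion. Both lines were exposed for 6 h to THZ1, a covalent inhibitor of the transcriptional kinase CDK7, at 50 nM or 200 nM, or to its solvent DMSO. That gives 6 groups of 1 library each: A673 under DMSO, 50 nM THZ1 and 200 nM THZ1, and SKNMC with the same 3 treatments. No difference in these data has a replicate check, so no p-value is given and each value stands for 1 library. Levels are in FPKM, sequenced fragments per kilobase of transcript relative to all mapped fragments of a library, so genes of different length can be compared. Changes are log2 ratios of FPKM with 1 added, a scale on which low genes appear to change less than they do. A gene was taken as active in a line when its FPKM under DMSO was above 1, and as decreased or increased when this ratio passed 2-fold.

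Notch receptors are membrane proteins that are cut when a ligand of the Jagged or Delta families on a neighbouring cell pulls on them. ADAM proteases and then gamma-secretase release the intracellular domain, which enters the nucleus and, with the DNA-binding protein RBPJ and a Mastermind coactivator, turns on target genes. HES and HEY genes are among the best known targets and encode basic helix-loop-helix repressors, of which HES1 represses its own gene and has a short-lived transcript.

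Each of 8 Ewing sarcoma markers was above 1 FPKM in all 6 libraries. CD99, a surface protein used in its diagnosis, was at 504 FPKM in A673 under DMSO, 646 at the lower dose and 763 at the higher, and at 313, 353 and 346 in SKNMC. FLI1, whose 3′ part is carried by the fusion, was at 31.5 FPKM in A673 under DMSO, 15.0 at the lower dose and 4.26 at the higher. In SKNMC FLI1 was at 27.3, 15.2 and 4.56 FPKM. Of 4 leukocyte markers 1 was above 1 FPKM in each line: CD68 in A673, between 2.16 and 3.61 FPKM, and PTPRC in SKNMC, at 10.2 under DMSO, 7.90 at the lower dose and 13.1 at the higher. The T cell gene CD3E was listed at 0 in every library. Of 4 epithelial markers KRT18 alone was above 1 FPKM, at 125 FPKM in A673 and 143 in SKNMC under DMSO, while KRT5 was listed at 0 throughout, and no listed muscle, endothelial or hepatocyte marker passed 1 FPKM. Over the SKNMC libraries under DMSO, 50 nM and 200 nM the summed leukocyte list, nearly all PTPRC, was at 10.5, 8.26 and 13.3 FPKM. The summed epithelial list, nearly all KRT18, was at 144, 79.9 and 74.6 FPKM there. In A673 the leukocyte sums were 2.31, 2.22 and 3.63 FPKM and the epithelial sums 125, 113 and 110. The part of these genes in the changes below was not tested.

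Of the 10 genes, 9 were active in both lines, and HEY2 was active in neither. At 50 nM THZ1 a decrease of 2-fold or more was seen in none of the 9 in A673 and none in SKNMC, where 15.9% and 15.8% of everything active in the line decreased. At 200 nM 2 of 9 decreased in A673, NOTCH1 and JAG1, against 25.3% of all active genes, and 2 of 9 decreased in SKNMC, JAG1 and JAG2, against 27.3%. JAG1 was thus decreased in both lines at 200 nM, a pattern that 20.4% of the 10574 genes active in both lines showed, and at 50 nM, where 11.4% showed it, no member did. An increase of at least 2-fold was seen for none of the 9 in any of the 4 comparisons, as it was for 0.343% of all active genes in A673 and 0.471% in SKNMC at 50 nM, and 0.126% and 0.462% at 200 nM. The counts of the group therefore lay near or below those of all active genes. The 9 genes had a median change in A673 of -0.21 for the lower and -0.53 for the higher dose, beside -0.27 and -0.40 over all active genes. The SKNMC medians were -0.19 and -0.26, beside -0.32 and -0.55. The comparisons of a line share their DMSO library, and an error in it enters both.

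These values are relative to the library and cannot show an even loss of RNA, and in bulk samples fewer cells and less RNA per cell cannot be told apart. As an alternative, each library was scaled to the 75th percentile of the active genes. The median change of all active genes was then -0.055 and -0.072 at 50 and 200 nM in A673 and -0.070 and -0.072 in SKNMC. Dividing by the median of 83 ribosomal protein genes instead gave medians of -0.45 and -0.68 in A673 and -0.57 and -0.96 in SKNMC. Of 54 changes of members between libraries of a line, 20 had the other sign under at least 1 of 3 scalings. None of the 6 that passed 2-fold did, but the scalings moved the median change from DMSO by at most 0.51. With 75th percentile scaling NOTCH1 in A673 and JAG1 and JAG2 in SKNMC fell short of 2-fold at 200 nM. So did the difference of RBPJ between 50 and 200 nM in A673. Because changes depend on the scaling, they are also given by their place among all active genes, as the percent of active genes whose change was lower.

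**Figure D1:**
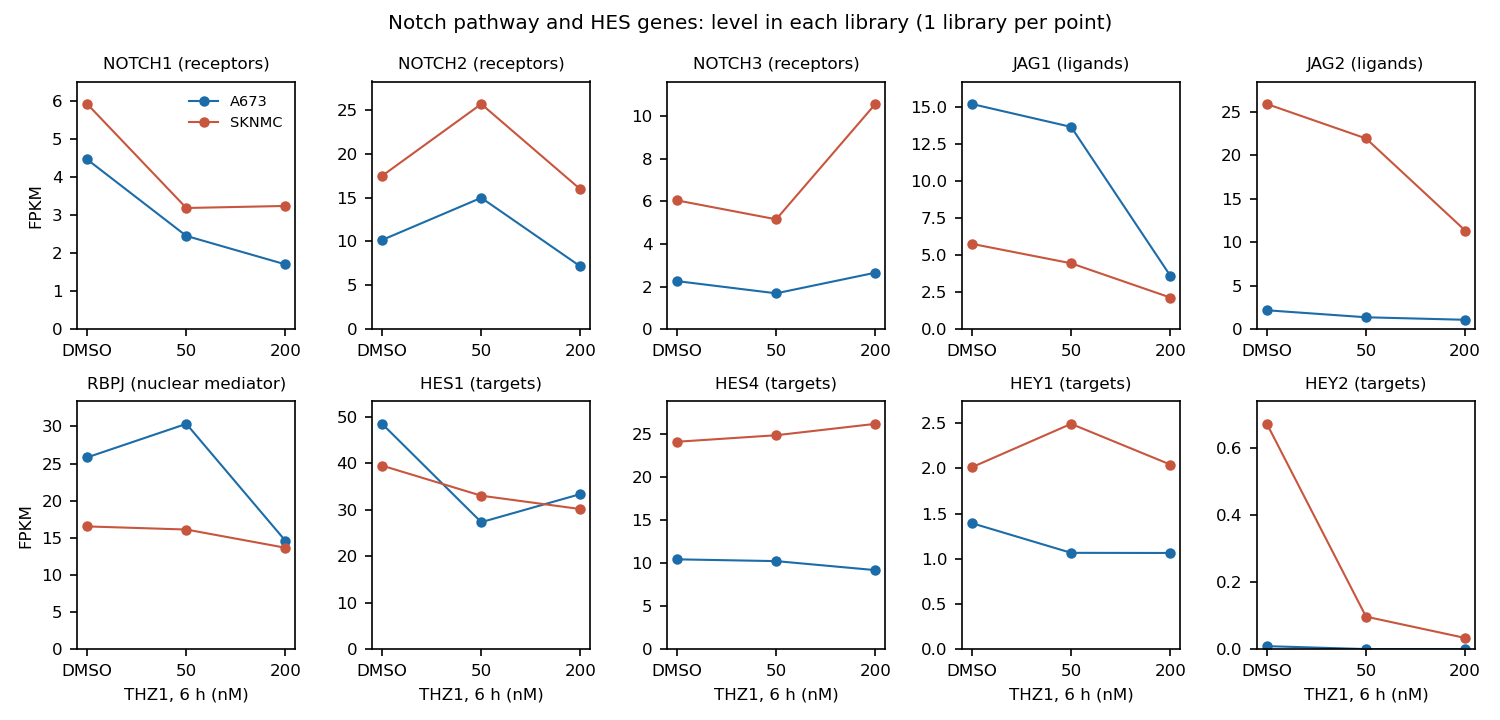
FPKM of the 10 genes (vertical axes, each from 0) in the DMSO, 50 nM and 200 nM libraries of A673 (blue) and SKNMC (red), with 1 library per point and lines joining the libraries of a cell line. NOTCH2 was highest at 50 nM in both lines, JAG1 lowest at 200 nM in both, and HES4 between 9.19 and 10.5 FPKM in A673 and between 24.1 and 26.2 in SKNMC.

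Among the receptors NOTCH2 was the most abundant in every library. It is listed as ENSG00000134250 at chr1:120454175-120612240 on the minus strand of hg19 and was at 10.2 FPKM in A673 under DMSO, 15.0 at the lower dose and 7.16 at the higher. The SKNMC levels were 17.5, 25.7 and 15.9 FPKM. NOTCH2 was therefore higher at 50 nM than under DMSO in both lines and lower at 200 nM than at 50 nM in both. Its change at 50 nM was 0.52 in A673 and 0.53 in SKNMC, above that of 97.5% and 96.9% of active genes, and it was above 0 under all 3 scalings. At 200 nM the change from DMSO was -0.45 in A673 and -0.13 in SKNMC, and the latter was 0.42 when scaled by the 75th percentile. NOTCH2NL, a partial copy of NOTCH2 that is nearly identical over the shared exons, was at 9.32, 7.45 and 5.93 FPKM in A673 and 11.6, 13.7 and 10.2 in SKNMC. Reads from the shared part may be assigned to either gene, so both levels are uncertain.

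NOTCH1 was the receptor whose level lay below that of DMSO at both doses in both lines. It lies at chr9:139388895-139440314 on the minus strand (ENSG00000148400) and was at 4.46 FPKM in A673 under DMSO, 2.45 at the lower dose and 1.71 at the higher. In SKNMC NOTCH1 was at 5.92, 3.19 and 3.24 FPKM. The SKNMC values at the 2 doses were nearly equal, while those in A673 were lower at the higher dose. Its change was -0.66 and -1.01 in A673 and -0.72 and -0.71 in SKNMC, and all 4 values were below 0 under each scaling. The value at 200 nM in A673 lay just past 2-fold and was -0.77 with 75th percentile scaling. Between 24.8% and 41.3% of active genes had a lower change than NOTCH1 in the 4 comparisons, so it lay within the bulk of active genes.

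NOTCH3 (ENSG00000074181, chr19:15270443-15311792, minus strand) was the receptor with its highest level at the higher dose. It was at 2.26 FPKM in A673 under DMSO, 1.69 at the lower dose and 2.65 at the higher, and in SKNMC at 6.05, 5.16 and 10.6 FPKM. With the deposited FPKM the level was lowest at 50 nM and highest at 200 nM in both lines, while the change at 50 nM in SKNMC, -0.19, was 0.054 with 75th percentile scaling. The change at 200 nM in SKNMC was 0.72, above 98.4% of active genes, and was above 0 under each scaling, from 0.18 with ribosomal protein scaling to 1.26 with 75th percentile scaling. In A673 the change at 200 nM was 0.17, and it was -0.084 with ribosomal protein scaling. NOTCH2 held 59.4% of the summed FPKM of the 3 receptors in SKNMC under DMSO, 75.5% at 50 nM and 53.6% at 200 nM. In A673 the shares were 60.2%, 78.3% and 62.2%.

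JAG1 and JAG2 encode the Jagged ligands, which are presented to Notch receptors on adjoining cells. JAG1 (ENSG00000101384, chr20:10618331-10654694, minus strand) was at 15.2 FPKM in A673 under DMSO, 13.7 at the lower dose and 3.62 at the higher. SKNMC held less of it, at 5.78, 4.46 and 2.15 FPKM. Most of the difference thus lay between 50 and 200 nM. The level at 200 nM was 23.8% of the DMSO level in A673 and 37.2% in SKNMC. On the log2 scale JAG1 decreased by 1.81 in A673, where 6.93% of active genes had a lower change, and by 1.11 in SKNMC, where 23.0% did. The SKNMC value was -0.71 with 75th percentile scaling, short of 2-fold. At 50 nM the change was -0.14 in A673, with the sign reversed to 0.094 by that scaling, and -0.31 in SKNMC.

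JAG2 (ENSG00000184916, chr14:105607317-105635161, minus strand) was the more abundant ligand of SKNMC, at 25.9 FPKM under DMSO, 22.0 at the lower dose and 11.4 at the higher. In A673 it was at 2.18, 1.38 and 1.09 FPKM. With DMSO JAG1 made up 87.5% of the summed FPKM of the 2 ligands in A673 and 18.2% in SKNMC. Their sum was 17.4 FPKM in A673 under DMSO and 4.71 at 200 nM, and 31.7 and 13.5 FPKM in SKNMC. In each line the more abundant ligand was among the genes decreased at 200 nM. Of all active ligand genes of the pathway list 1 of 2 decreased in A673 and 3 of 4 in SKNMC at 200 nM, beside the 25.3% and 27.3% above, the third in SKNMC being DLK2, a Delta-like gene at 1.84, 0.31 and 0.29 FPKM there. JAG2 was at 43.8% of its DMSO level in SKNMC at 200 nM and at 49.9% in A673, a change of -1.12 and -0.61 once 1 FPKM is added. With 75th percentile scaling the SKNMC value was -0.60. Annotated long noncoding RNAs share 306 exon bases with JAG1 on the other strand and 469 with JAG2 on the same strand, and how the counting treated strand is not stated in the sources used here.

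RBPJ, the DNA-binding protein on which the Notch intracellular domain acts and which represses the same sites in its absence, is listed as ENSG00000168214 at chr4:26165076-26436541 on the plus strand. It was at 25.8 FPKM in A673 under DMSO, 30.3 at the lower dose and 14.6 at the higher. The same libraries of SKNMC gave 16.5, 16.1 and 13.7 FPKM. The SKNMC values lay closer together than those of A673. The change at 200 nM was -0.78 in A673, negative under each scaling, and -0.26 in SKNMC, where it was 0.28 with 75th percentile scaling. From 50 to 200 nM RBPJ was lower by more than 2-fold in A673, with a log2 difference of -1.01 that was -0.90, short of 2-fold, with 75th percentile scaling.

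Among the 10 genes HES1 and HES4 were the most abundant targets. Their promoters share an arrangement of 2 RBPJ-type motifs, which is why both are shown. RefSeq promoter windows (GRCh38.p14, 250 bases before to 50 after the start) were found for 9 of the 10 genes, all but HEY1, in 13 windows, and the shown stretches were placed on GRCh37 by their sequence. They run 5′ to 3′ over the 150 bases before the RefSeq start, HES1 at chr3:193853787-193853936 on the plus strand and HES4 at chr1:935478-935627 on the minus strand. Capitals mark matches to GTGNGAA on the shown strand or, as TTCNCAC, on the other.
HES1: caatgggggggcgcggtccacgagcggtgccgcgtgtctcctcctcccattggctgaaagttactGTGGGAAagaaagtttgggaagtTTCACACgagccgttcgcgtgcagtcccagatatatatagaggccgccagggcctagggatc
HES4: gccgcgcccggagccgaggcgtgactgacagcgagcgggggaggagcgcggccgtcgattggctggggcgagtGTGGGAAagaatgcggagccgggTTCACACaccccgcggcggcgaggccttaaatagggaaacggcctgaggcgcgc
In both promoters the 2 matches face each other with 16 bases between them, and they begin 85 and 62 bases before the start in HES1 and 77 and 54 in HES4. GTGNGAA was present on either strand in 13.8% of 35093 promoter windows of all genes, and in 4 of the 13 windows of members, those of HES1, HES4 and HEY2 and 1 of the 5 of RBPJ. Facing pairs with 15 to 17 bases between them were found in 4 of the 35093 windows, those of HES1, HES4, ITIH4 and PLPPR5-AS1. The motif and the spacing were chosen after these sequences had been seen, and a match is a description of the letters and not a measured binding site.

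HES1 (ENSG00000114315, chr3:193853933-193856521, plus strand) was the member with the highest level in every library but 1, and was at 48.5 FPKM in A673 under DMSO, 27.3 at the lower dose and 33.4 at the higher. For SKNMC the levels were 39.5, 33.1 and 30.2 FPKM. The exception was A673 at 50 nM, where RBPJ stood at 30.3. In A673 HES1 was lowest at 50 nM, at 56.3% of its DMSO level, and at 68.8% at 200 nM. The changes were -0.81 and -0.53 in A673, with 22.2% and 43.7% of active genes lower, and they were negative under each scaling. In SKNMC they were -0.25 and -0.38, with 55.0% and 59.7% of active genes lower, and with 75th percentile scaling they were 0.032 and 0.18. HES1 did not pass 2-fold in any of the 4 comparisons with the deposited FPKM, and reached -1.01 at 50 nM in A673 with ribosomal protein scaling.

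HES4 (ENSG00000188290, chr1:934341-935552, minus strand), whose promoter holds the same facing pair, was at 10.5 FPKM in A673 under DMSO, 10.2 at the lower dose and 9.19 at the higher. Its SKNMC levels were 24.1, 24.9 and 26.2 FPKM. At each dose the level was within 88.0% to 108.6% of that under DMSO. Its change lay between -0.17 and 0.11, while 61.5% of active genes in A673 and 85.8% in SKNMC had a lower change at 200 nM. All 4 changes of HES4 were above 0 with 75th percentile scaling and below 0 with ribosomal protein scaling, so no direction can be given.

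HEY1 (ENSG00000164683) was at 1.39 FPKM in A673 under DMSO, 1.07 at the lower dose and 1.06 at the higher. The SKNMC libraries had 2.01, 2.49 and 2.04 FPKM. All of these are low levels, and the changes lay between -0.21 and 0.21. HEY2 (ENSG00000135547, chr6:126068809-126082415, plus strand) was at 0.0088 FPKM in A673 under DMSO and listed at 0 at both doses. SKNMC had 0.67 FPKM of it under DMSO, 0.097 at the lower dose and 0.033 at the higher. These values of HEY2 are below the level taken as active, and 5% of the values above 0 in the SKNMC library under DMSO were below 0.017 FPKM. A listed 0 can be a failed estimate, since EEF1A1, a translation factor of all cells, also stands at 0 in SKNMC at both doses.

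**Figure D2:**
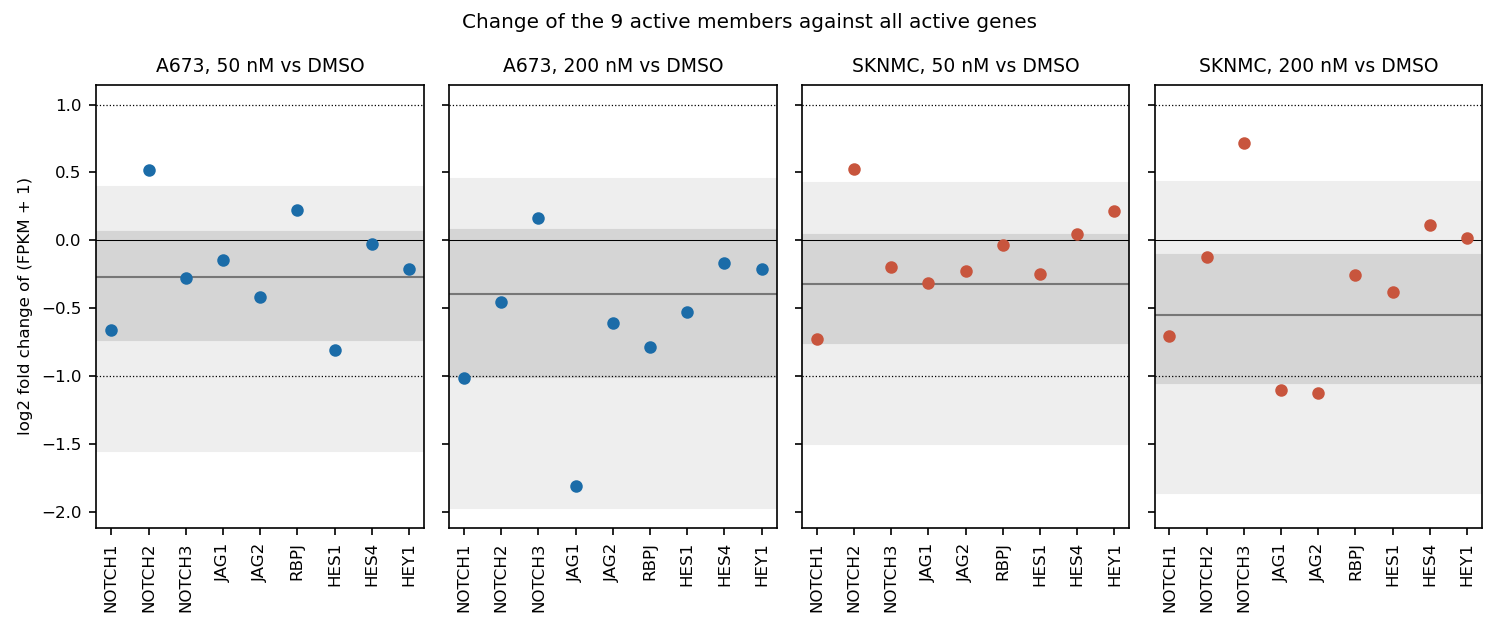
Log2 fold change of FPKM with 1 added (vertical axis) for the 9 active genes in the 4 comparisons of THZ1 against DMSO, A673 in blue and SKNMC in red. Grey bands hold the middle 50% and 90% of all active genes, the grey line is their median, and dotted lines mark 2-fold. NOTCH2 lay above the 90% band at 50 nM in both lines and NOTCH3 above it in SKNMC at 200 nM, at 0.72.

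The levels of the THZ1 libraries can be compared without those of the DMSO library, which here only sets which genes count as active. Between 50 and 200 nM, 2 of 9 genes were at least 2-fold lower at 200 nM in A673, JAG1 with a log2 difference of -1.67 and RBPJ with -1.01, against 7.44% of active genes. RBPJ was not among them with 75th percentile scaling. In SKNMC none of 9 passed 2-fold with 1 FPKM added, against 8.39%. With 0.1 FPKM added JAG1 did, at -1.02, against 13.0% of active genes on that scale. NOTCH3 in SKNMC then passed 2-fold upward, at 1.02, beside 225 of all 11896 active genes. With 1 FPKM added NOTCH2 came close to being 2-fold lower in A673, with -0.97, and was at -0.65 in SKNMC. With 0.1 FPKM added NOTCH2 passed 2-fold in A673, at -1.055, against 11.7% of active genes. JAG1 and JAG2 in SKNMC were at -0.80 and -0.89. In A673 JAG1, NOTCH2 and RBPJ were at 26.5%, 47.8% and 48.1% of their 50 nM level at 200 nM, and in SKNMC JAG1 was at 48.1% and NOTCH3 at 204.9%. NOTCH3 was higher at 200 nM than at 50 nM in both lines, with differences of 0.44 and 0.91 that were above 0 under each scaling.

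The 2 lines had the same 9 genes active and differed in the levels of some of them. With DMSO 1 of 9 genes was at least 2-fold higher in A673, JAG1, against 8.39% of the 11855 genes with a mean above 1 FPKM, and 3 of 9 were at least 2-fold higher in SKNMC, JAG2, HES4 and NOTCH3, against 14.2%. JAG2 had the largest difference of the 9, at 11.9 times the A673 level in SKNMC. HES4 was at 2.31 times and NOTCH3 at 2.68 times the A673 level, and JAG1 in A673 was at 2.64 times the SKNMC level. HES1 differed little, at 1.23 times the SKNMC level in A673. With ribosomal protein scaling the genes at least 2-fold apart in either direction were 3 of 9, beside 4. The difference of the 2 lines in their change from DMSO stayed below 2-fold for each of the 9 genes at both doses and was not tested. With the deposited FPKM this difference was largest for HES1 at 50 nM, -0.55 for A673 minus SKNMC, and for JAG1 at 200 nM, -0.70.

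**Figure D3:**
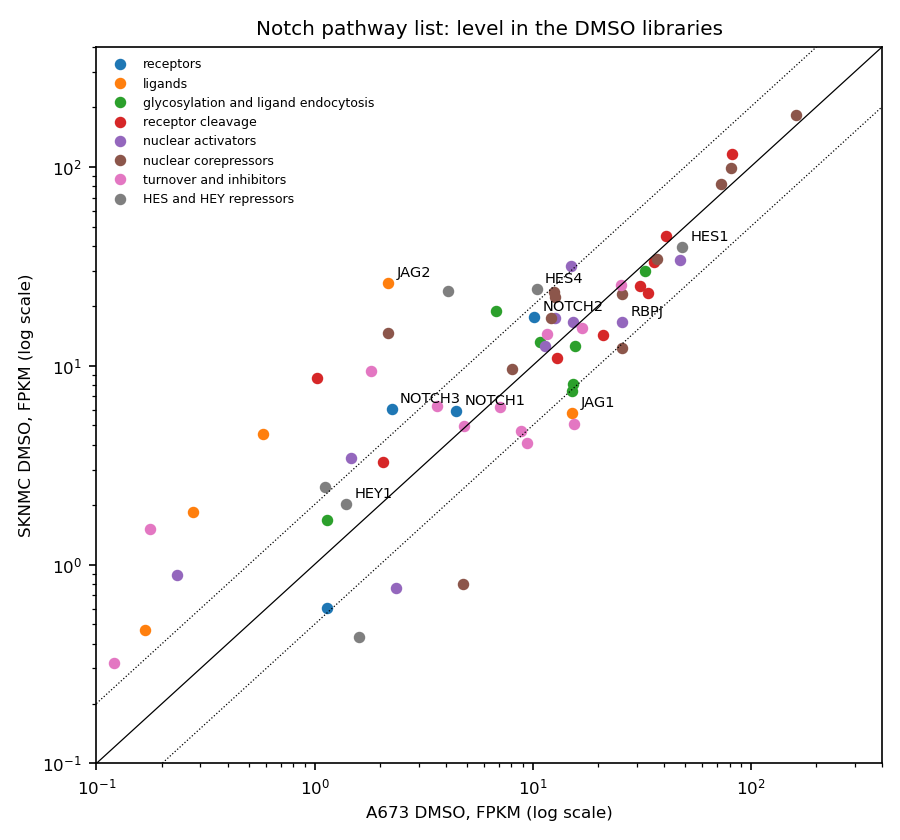
FPKM under DMSO in A673 (horizontal) and SKNMC (vertical), on log axes, for the 64 genes of the Notch pathway list above 0.1 FPKM in both lines, coloured by role, with the members named. The solid line marks equal levels and dotted lines a 2-fold difference in FPKM; JAG2 lies farthest above the line among the members, at 2.18 and 25.9 FPKM.

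A list of 73 genes of the wider pathway, which includes the 10, was read in the same way. At 50 nM 4 of 58 active genes decreased at least 2-fold in A673 (6.90%) and 5 of 57 in SKNMC (8.77%), and at 200 nM 13 of 58 (22.4%) and 15 of 57 (26.3%). The shares at 50 nM were below the 15.9% and 15.8% of all active genes and those at 200 nM near the 25.3% and 27.3%. The counts depend on the pseudocount: with 0.1 FPKM added in place of 1 they were 7 (12.1%) and 10 (17.5%) at 50 nM, beside 21.6% and 22.5% of all active genes on that scale. In both lines at once 3 of 54 genes decreased at 50 nM, against 11.4% of all genes active in both, and 9 of 54 (16.7%) at 200 nM, against 20.4%. Of the whole list FBXW7 alone increased at least 2-fold with the deposited FPKM and 1 added, in both lines at the lower dose. With 0.1 FPKM added 2 genes of the list increased in SKNMC at that dose, as did 92 of all 11896 active genes. With 75th percentile scaling the split of decreased to increased genes at 200 nM was 9 to 2 in A673 and 8 to 5 in SKNMC, beside 13 to 0 and 15 to 0 with the deposited FPKM. Over all active genes that scaling gave 1915 to 112 of 11077 in A673 and 1668 to 524 of 11896 in SKNMC, so the decreases of the list lay near those of all genes in both lines. For the 9 members in SKNMC it was then 0 to 1, NOTCH3 being the gene that increased, beside 2 to 0.

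Of the genes of receptor turnover and inhibition 3 of 10 active ones decreased in A673 and 3 of 11 in SKNMC at each dose, beside the 15.9% and 15.8% of all active genes at 50 nM and the 25.3% and 27.3% at 200 nM. NUMBL, a relative of the Notch inhibitor NUMB, was at 11.6 FPKM in A673 under DMSO, 3.15 at the lower dose and 2.62 at the higher, and at 14.4, 2.38 and 2.68 in SKNMC. DTX3L, a Deltex-type ubiquitin ligase, was at 7.11, 1.44 and 0.73 FPKM in A673 and 6.20, 1.53 and 0.68 in SKNMC. DTX2, a ligase of the same family, was at 8.83, 1.94 and 1.42 FPKM in A673 and 4.70, 1.81 and 0.69 in SKNMC. These are the 3 genes of the list decreased at 50 nM in both lines, and they were decreased at 200 nM in both as well, though DTX2 was at -0.85 in SKNMC at 50 nM with 75th percentile scaling. FBXW7, the substrate receptor of the ubiquitin ligase that marks the Notch intracellular domain for degradation, went the other way at 50 nM. It was at 4.84 FPKM in A673 under DMSO, 11.2 at the lower dose and 5.42 at the higher, and at 4.98, 14.1 and 9.60 in SKNMC. Its increase at 50 nM was 1.06 in A673 and 1.34 in SKNMC, and 0.87 and 0.98 with ribosomal protein scaling, short of 2-fold. NRARP, a target gene whose product restrains Notch signalling, had the same order in A673, at 1.82, 3.50 and 2.49 FPKM, and was at 9.37, 19.1 and 8.98 in SKNMC. It did not pass 2-fold with 1 FPKM added, and it was picked after its values were seen. ITCH, under DMSO the most abundant gene of this role, was at 25.5, 22.4 and 15.9 FPKM in A673 and 25.3, 21.1 and 16.3 in SKNMC.

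RBPJ and the other nuclear activators and the corepressors of the list held no decrease of 2-fold at 50 nM in either line, beside the 15.9% and 15.8% of all active genes. Of the activators, with RBPJ counted among them, 4 of 8 active genes decreased in A673 at 200 nM and 3 of 7 in SKNMC, beside 25.3% and 27.3%. SNW1, under DMSO the most abundant activator in both lines and also a splicing factor, was at 47.5 FPKM in A673 under DMSO, 28.8 at the lower dose and 15.1 at the higher, and at 33.9, 23.1 and 10.9 in SKNMC. EP300, a histone acetyltransferase recruited by Mastermind proteins, was at 11.4, 10.9 and 3.30 FPKM in A673 and 12.6, 11.2 and 3.44 in SKNMC. EP300 was thus close to its DMSO level at the lower dose and far below it at the higher one. Of the corepressors 3 of 12 active genes decreased in A673 at 200 nM (25%) and 4 of 11 in SKNMC (36.4%), not far from the same shares. TLE3, a Groucho-type corepressor that HES proteins bind, was at 12.7, 12.9 and 4.39 FPKM in A673 and 22.2, 27.3 and 5.81 in SKNMC. SNW1, EP300 and TLE3 passed 2-fold at 200 nM in both lines under each of the 3 scalings. SPEN and CIR1, corepressors of RBPJ, decreased by 1.25 and 1.26 in A673 and by 1.14 and 1.47 in SKNMC at 200 nM. These are values with the deposited FPKM, and those of SPEN and CIR1 under the scalings are not given. HDAC2, the most abundant corepressor gene of the list, was at 161, 181 and 161 FPKM in A673 and 182, 208 and 153 in SKNMC.

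Genes that process the receptor and its ligands are few, and their counts are set beside the same shares of all active genes, 15.9% and 15.8% at 50 nM and 25.3% and 27.3% at 200 nM. None of 9 active genes of receptor cleavage decreased in A673 at either dose, and in SKNMC 1 did, PSEN2, at 200 nM, from 8.69 to 3.21 FPKM. APH1A, a gamma-secretase subunit and the most abundant of these genes, was at 82.5, 64.5 and 87.1 FPKM in A673 and 117, 90.3 and 100.3 in SKNMC. Of 7 active genes of glycosylation and ligand endocytosis 1 decreased in each line at 50 nM and none at 200 nM. LFNG, a Fringe glycosyltransferase that changes which ligands a receptor answers to, was the gene in A673, from 15.4 to 7.05 FPKM. POFUT1, the O-fucosyltransferase of Notch and under DMSO the most abundant gene of this role, was that of SKNMC, from 29.9 to 13.5 FPKM. These counts depend on the 1 FPKM added. NEURL1B, a ubiquitin ligase gene of the same role, was at 46.6% of its DMSO level at the lower dose and 22.0% at the higher in A673 and at 43.7% and 23.1% in SKNMC, without passing 2-fold on the scale used. The same held in SKNMC for PSEN2 (46.7%) and APH1B (41.9%) at 50 nM. PSEN2, APH1B, NEURL1B and LFNG were named after their values were seen.

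**Figure D4:**
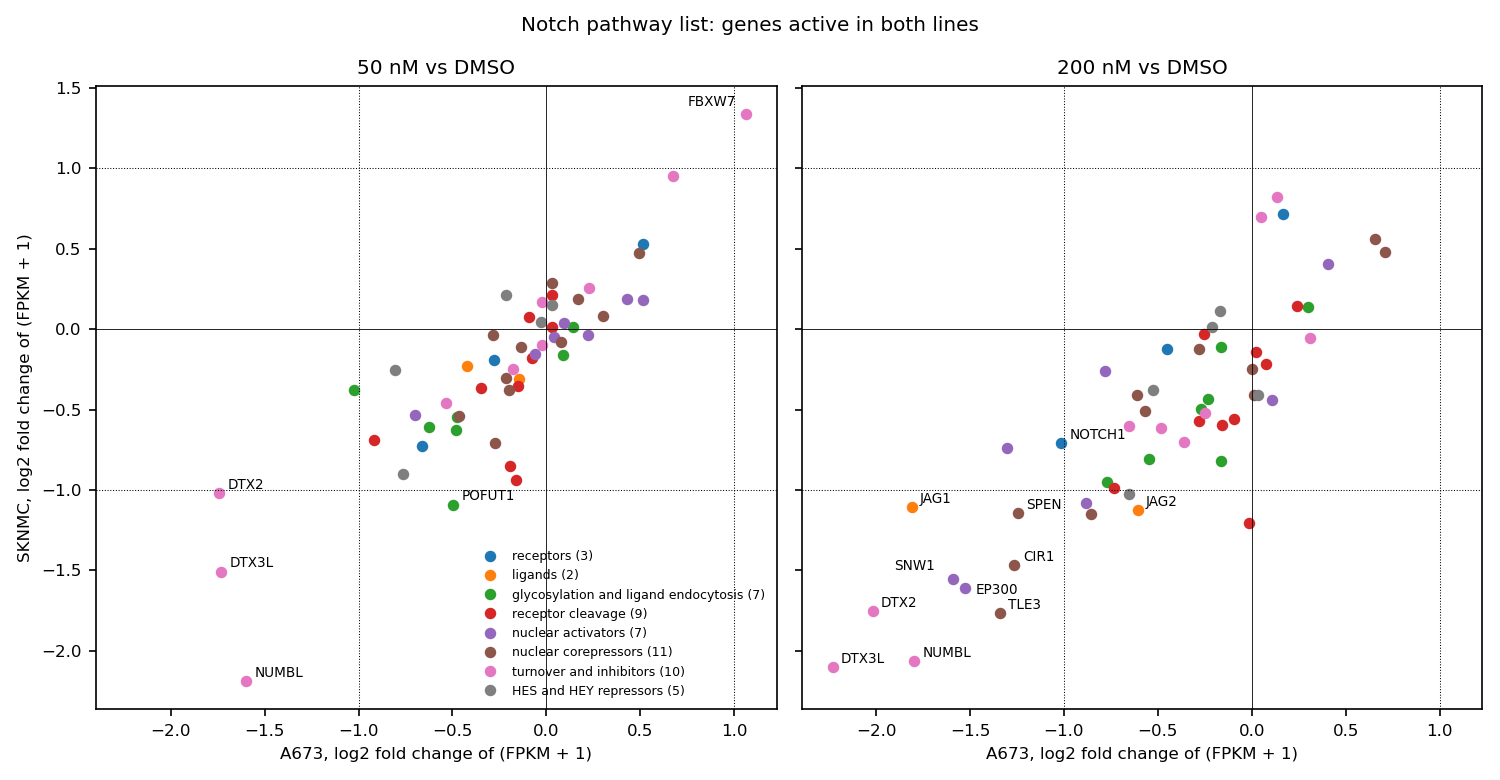
Log2 fold change of FPKM with 1 added in A673 (horizontal) and SKNMC (vertical) at 50 nM (left) and 200 nM (right) against DMSO, for the 54 genes of the Notch pathway list active in both lines, coloured by role with the number of genes in parentheses. Dotted lines mark 2-fold, and members and rule-named genes past it in a line are labelled; NUMBL, DTX2 and DTX3L lie past -1 on both axes in both panels and FBXW7 past 1 at 50 nM.

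The order seen for NOTCH2, highest at 50 nM and lowest at 200 nM in both lines, was looked for in the other genes after it had been noticed. Of the 54 pathway genes active in both lines 7 showed it (13.0%), NOTCH2, MIB1, ADAM17, MAML1, CREBBP, TLE3 and AAK1, beside 6.93% of all genes active in both. The count was 6 with 75th percentile scaling (11.1%, beside 6.60% of all genes), where NOTCH2 was not among them. With ribosomal protein scaling it was 1, NOTCH2 (1.85%, beside 3.76%), so the share of the list was then below that of all genes. MAML1, a Mastermind coactivator, was at 15.3, 20.9 and 7.82 FPKM in A673 and 16.5, 19.0 and 7.29 in SKNMC. CREBBP, the relative of EP300, was at 12.6, 18.5 and 4.51 FPKM in A673 and 17.4, 19.8 and 10.0 in SKNMC.

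For each active member the genes of most similar course over the 6 libraries were sought among 5985 candidates that exceeded 10 FPKM in both lines under DMSO, by the Euclidean distance of log2 FPKM with 1 added, centred in each line. The smallest distance to HES4 was that of USP48, 0.043, beside a median of 0.67 over all candidates. The nearest of so many candidates lies far below their median for any gene, so these neighbours are a description only. USP48 was at 24.7, 24.0 and 21.5 FPKM in A673 and 27.2, 28.8 and 29.1 in SKNMC. HES1 was nearest to CIAO1 (0.075). NOTCH2 was nearest to SLC25A36 (0.11), which was at 19.4, 26.1 and 12.5 FPKM in A673 and 32.0, 48.1 and 30.8 in SKNMC. NOTCH3 was nearest to KNTC1 (0.12) and JAG1 to the splicing factor gene SRSF4 (0.15), whose level was 40.6, 36.5 and 10.8 FPKM in A673 and 50.4, 43.5 and 21.2 in SKNMC. RBPJ had the most distant neighbour of these, TPX2 (0.25). For these 6 members the nearest gene was the same with 0.1 FPKM or none added, while for NOTCH1, JAG2 and HEY1 it depended on the amount and is not given.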

How the data were processed

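The authors made TruSeq libraries, sequenced 100-bp paired-end reads and aligned them to hg19 with STAR and Ensembl 75 genes. The deposited values are FPKM per gene, credited to StringTie in the study's methods and to Cufflinks in the submitters' processing notes. The table's title speaks of average expression, and whether cultures were pooled is not given in the sources used here. It also holds 4 columns of the authors' log2 fold changes of THZ1 against DMSO, which were not used. FPKM holds no read counts. The most frequent ratio of low values put the THZ1 libraries at 88.9% to 96.6% of the depth of their DMSO library. This estimate is rough, as only 1.37% to 1.81% of the low genes had that ratio.

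Fold changes were log2 of FPKM plus 1 over the same of DMSO, computed with Python 3.11.15, numpy 2.4.6 and pandas 2.3.3 and tested on simulated data. Active genes had FPKM above 1 with DMSO, and 2-fold was the threshold. Members and lists were chosen with earlier results of these data known. Genes named by rule are the 10 members and, for each role of the pathway list, up to 3 genes with the largest decrease past 2-fold shared by both lines, any gene increased past 2-fold, the most abundant gene, and the nearest genes by course. Other genes of the list were named after their values were seen. For symbols with several entries the entry of highest mean FPKM was taken. Alternatives were pseudocounts of 0.1 and none, 3 scalings, a 1.5-fold threshold, active genes above 0.5 or 5 FPKM, no filter and protein-coding genes alone. Alternatives for the difference between lines and the nearest genes were added after the data were seen. Motifs were searched in RefSeq promoter windows, and gene overlaps in GENCODE on GRCh37.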

Additional observations from a re-analysis of the deposited data

Results flagged for a closer look

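With the deposited FPKM HES4 and HEY1 were below DMSO in A673 and above it in SKNMC at both doses, by as little as -0.026 for HES4 in A673 at 50 nM and 0.014 for HEY1 in SKNMC at 200 nM. Each value is from 1 library and the difference was not tested. No direction can be given for HES4. For HES4 the change in A673 minus that in SKNMC was -0.069 at 50 nM and -0.28 at 200 nM. For HEY1 it was -0.43 at 50 nM and -0.23 at 200 nM, at levels between 1.06 and 2.49 FPKM. With ribosomal protein scaling both genes were below DMSO in both lines, and with 75th percentile scaling HES4 was above DMSO in both lines while HEY1 kept opposite signs. Of the genes active in both lines 5.27% had such opposite signs at both doses.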

How the results depend on the processing

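Of 100 counts under alternative settings 77 stayed within 1.5 times the count with the deposited FPKM. Some of the 77 could not move, as the looser filters on low values cannot add a decreased gene. Of 270 changes of single members under the 5 pseudocount and scaling settings, which alone can alter them, none that passed 2-fold changed sign. This could hardly come out otherwise. A pseudocount cannot turn the sign of a change, and the scalings moved the median change from DMSO by at most 0.51. With a pseudocount of 0.1 the pathway genes decreased at 50 nM were 7 in A673 and 10 in SKNMC, beside 4 and 5. Of all active genes 21.6% and 22.5% then decreased. The members at least 2-fold lower at 200 than at 50 nM, the dose step, were 4 summed over lines, beside 2. Of all active genes 11.7% in A673 and 13.0% in SKNMC then passed the dose step, beside 7.44% and 8.39%. Without a pseudocount the pathway counts at 50 nM were 8 and 10 and the dose step count was 4. Of all active genes 22.3% in A673 and 23.4% in SKNMC then decreased at 50 nM. For the dose step their shares were 12.5% and 13.8%. With 75th percentile scaling 1 member decreased in A673 and 0 in SKNMC at 200 nM, beside 2 and 2. The decreased pathway genes in SKNMC were then 3 of 57 at 50 nM and 8 at 200 nM, beside 5 and 15. Among all 11896 active genes of SKNMC, 1279 passed the same threshold for the lower dose and 1668 for the higher. For A673 and the higher dose the background was 1915 of 11077 genes. The dose step count was 1. How many of all active genes passed the dose step is not given for this or ribosomal protein scaling. With ribosomal protein scaling 1 member decreased in A673 at 50 nM, beside 0, where 2302 of all 11077 active genes did, and 25 of 57 pathway genes in SKNMC at 200 nM, where 5647 of 11896 did, a share no lower than that of the list, and the dose step count was 4. With a 1.5-fold threshold 2 members decreased in A673 at the lower dose and 4 at the higher, and 1 in SKNMC at the lower. The decreased pathway genes were then 11 and 23 in A673 and 14 and 25 in SKNMC. Over all active genes the lower quartile of change was past 1.5-fold at both doses in both lines. It was -0.73 and -1.01 in A673 and -0.76 and -1.05 in SKNMC, while the medians were short of 1.5-fold. The exact share of all active genes at this threshold is not given. With active genes above 5 FPKM 1 member decreased in A673 at 200 nM and 3 pathway genes in SKNMC at 50 nM, fewer genes being counted. The share of all genes above 5 FPKM that decreased is not given, so these counts cannot be called few or many. The cause of the other shifts was not tested. Rescaling to a common sum moved no count by more than 1.5 times. Active genes above 0.5 FPKM, no filter and protein-coding genes alone gave the same counts as the main setting. For the looser filters this was fixed in advance. With 1 FPKM added, a decrease of 2-fold needs at least 1 FPKM under DMSO. Read counts are not known from FPKM, so no counting error can be given, which bears most on HEY1, HEY2 and other low genes.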

Other observations

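HDAC1 was higher at both doses in both lines, at 81.2, 114.9 and 128 FPKM in A673 with DMSO, 50 nM and 200 nM and at 98.4, 137 and 146 in SKNMC, and it was picked after its values were seen. With ribosomal protein scaling its change in SKNMC at 200 nM was -0.027, while its other changes were above 0 under each scaling. Among the HES and HEY genes outside the 10, HES6 was at 4.10 to 4.23 FPKM in A673 and at 23.6, 26.4 and 17.5 in SKNMC. HEYL was at 1.60, 0.36 and 0.18 FPKM in A673 and at 0.43, 0.22 and 0.09 in SKNMC. HES7 was at 1.12, 0.25 and 0.35 FPKM in A673 and 2.46, 0.85 and 0.70 in SKNMC. HES2, HES3 and HES5 stayed below 0.1 FPKM in every library.

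Gene span was set against the difference of 200 from 50 nM over the active genes of the pathway list. Spearman's rho across genes was -0.51 over 58 genes in A673 and -0.37 over 57 in SKNMC, beside -0.23 and -0.16 over all active genes. Against DMSO the sign depended on the dose: at 50 nM rho was 0.30 and 0.22, beside 0.18 in each line over all active genes, and at 200 nM -0.28 and -0.11, beside -0.014 and 0.043. Genes are not independent replicates, and the points of a line share the same 2 libraries. Among the members RBPJ (271 kb) and NOTCH2 (158 kb) have the longest spans and HES4 (1.21 kb) and HES1 (2.59 kb) the shortest.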
